A study of Mus musculus with 6 samples.

Results

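Ier2, Ier3, Ier5, Btg1, Btg2, Btg3 and Csrnp1 are 7 genes grouped here as early response genes. Some of them are switched on early after growth or stress signals in many cells. They were taken as every probe of the signal table whose gene symbol is one of these names. Symbols were at hand only for probes among the 20308 detected on at least 1 array, and the other 24973 of the 45281 probes in the table could not be looked up. The genes had been selected on measured values of these same arrays, so that all values below are a description and not a test of the group. Of the 7 genes, 4 had at least 1 named probe, Ier3 and Csrnp1 with 1 each and Btg1 and Btg3 with 2 each, among 10585 genes named in the annotation used. For Ier2, Ier5 and Btg2 no probe was named here, which does not say that the array holds none, and they have no value below.

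The cells were 3T3-CrT cells, mouse 3T3 Tet-Off fibroblasts with a stably integrated rabbit creatine transporter (CrT) cDNA that carries a hemagglutinin tag. A group of 3 samples stayed untreated and a group of 3 received 5 mM creatine monohydrate (Cr) in growth medium for 3 h, and both carried the transgene and grew under G418 and puromycin with 10% serum. The study searched with this comparison for genes that respond to saturating Cr, and the line is an artificial model in which a transgene supplies the transporter. RNA from each sample was read in 1 colour on an array of the Illumina Mouse WG-6 v2 BeadChip.

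Early response genes are transcribed within minutes of a stimulus without new protein synthesis, and most of their transcripts decay fast. In fibroblasts serum and growth factors drive many of them through the ERK kinase cascade and serum response factor, and stress, NF-kappaB and p53 drive others. Ier3 encodes a short-lived stress-induced protein that affects cell survival and, in its human form, is phosphorylated by ERK. Ier2 and Ier5 encode nuclear proteins, and human IER5 brings the phosphatase PP2A to the heat shock factor HSF1. Btg1, Btg2 and Btg3 encode antiproliferative proteins of the BTG/TOB family, which bind the CCR4-NOT deadenylase and so shorten poly(A) tails, and Btg2 is a p53 target. Csrnp1 encodes a cysteine- and serine-rich nuclear protein first found as a transcript induced by human AXIN1.

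The promoters of the members, measured here or not, show which letters known to bind these factors lie next to each start. RefSeq promoters of assembly GRCm38.p6, 300 bases long with 250 before and 50 after the annotated start, were found for 6 of the 7 genes, 10 in all, 1 each for Ier3, Ier5, Btg1 and Btg2, 2 for Btg3 and 4 for Csrnp1. The 250 bases before the start are printed for the 3 genes below. Ier3 was chosen for the lowest fold change and Csrnp1 (its outermost start) for the next lowest. Btg1 was chosen as the BTG member measured by a pair of probes with similar fold changes. In that assembly the measured genes span chr17:35821713-35822911 (Ier3), chr10:96617001-96622813 (Btg1), chr16:78359860-78377181 (Btg3) and chr9:119971163-119984742 (Csrnp1). Capitals mark matches to any of the 9 motifs searched.
Ier3, chr17:35821463-35821712, plus strand: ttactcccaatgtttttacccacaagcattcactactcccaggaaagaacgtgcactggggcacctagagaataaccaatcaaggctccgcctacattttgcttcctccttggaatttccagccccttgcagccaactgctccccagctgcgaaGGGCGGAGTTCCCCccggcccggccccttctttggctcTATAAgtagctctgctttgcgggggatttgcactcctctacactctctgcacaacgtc
Btg1, chr10:96616751-96617000, plus strand: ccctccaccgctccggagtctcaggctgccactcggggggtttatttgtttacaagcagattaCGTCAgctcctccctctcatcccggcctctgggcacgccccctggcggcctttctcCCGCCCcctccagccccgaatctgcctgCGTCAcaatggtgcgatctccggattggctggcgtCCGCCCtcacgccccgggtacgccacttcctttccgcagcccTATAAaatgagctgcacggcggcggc
Csrnp1, chr9:119984743-119984992, minus strand: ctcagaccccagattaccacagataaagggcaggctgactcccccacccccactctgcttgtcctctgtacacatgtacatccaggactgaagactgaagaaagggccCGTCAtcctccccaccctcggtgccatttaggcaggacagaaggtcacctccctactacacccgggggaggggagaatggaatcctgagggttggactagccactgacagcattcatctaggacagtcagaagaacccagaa
In the Ier3 promoter the capitals are a GC box at -96 to -91, an overlapping NF-kappaB match on the reverse strand at -92 to -83, and a TATA box at -58 to -54. In the Btg1 promoter they are a TATA box at -26 to -22, a pair of GC boxes and a pair of TGACG cores, and in the Csrnp1 promoter a single TGACG core at -142 to -138 on the reverse strand.

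Matches were sought on both strands and are letters only, not sites of binding. The inner starts of Csrnp1 and Btg3 lie within the gene, so their windows may hold transcribed sequence of longer transcripts. The GC box GGGCGG lay in 6 of the 10 member promoters, 1 of each of the 6 genes, against 35.7% of 32851 promoters of the same length. The core TGACG of the cyclic AMP response element lay in 6 of 10 but 3 of 6 genes (Btg1, Btg2 and all 4 starts of Csrnp1) against 20.8%, and the full element TGACGTCA, which contains the core on both strands, in the Btg2 promoter only, against 1.79%. The TATA box TATAA lay in 3 of 10 (Ier3, Ier5 and Btg1) against 24.9%. The NF-kappaB motif lay in the Ier3 promoter and in 1 Btg3 promoter, against 8.46%, and a p53 decamer in the Ier5 promoter, against 8.36%. The AP-1 site TGANTCA occurred at 2 places in the innermost Csrnp1 promoter, against 7.81% of promoters with at least 1. The CArG box of the serum response element lay in 0 of 10 against 1.63%, and the heat shock motif TTCNNGAA in 0 of 10 against 8.52%, within this window. The GC content was 54% for Ier3, 64.67% for Btg1 and 57.67% to 78.33% for the Btg3 and Csrnp1 promoters, and the median of all promoters was 52.67%.

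**Figure D1:**
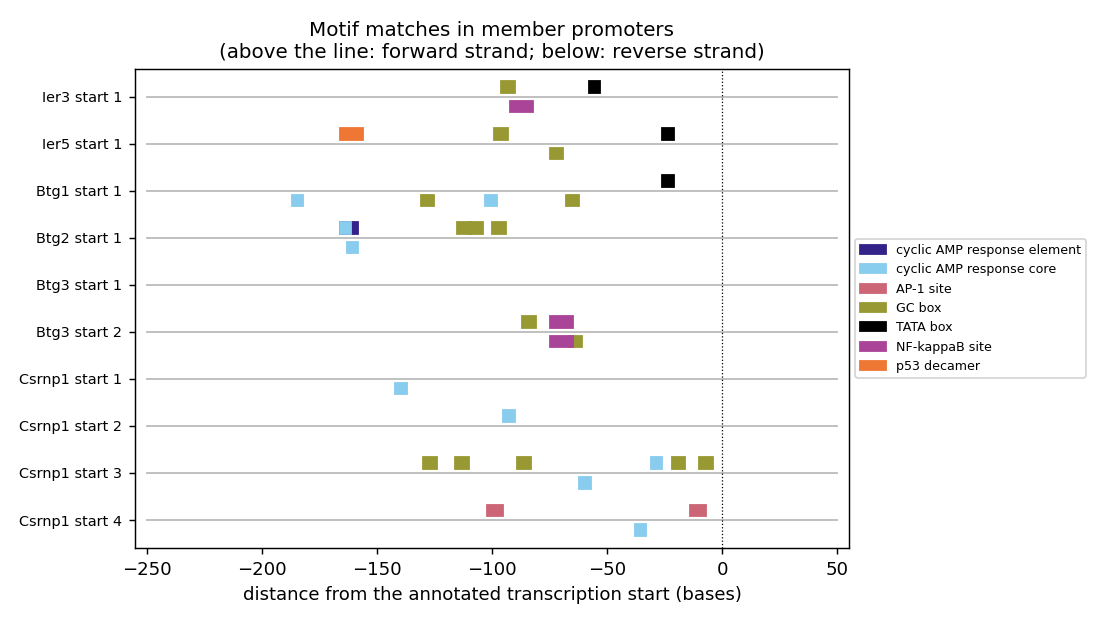
Motif matches in the 10 RefSeq promoters of 6 member genes, by distance in bases from the annotated start (x axis), with 1 line per promoter, forward-strand matches above and reverse-strand matches below it. GC boxes lie in 6 of the 10 promoters, TATA boxes in 3, and the first Btg3 start shows no match.

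The arrays differed in the scale of bright signals, with a fitted vsn scale of 0.0178 for untreated replicate 1 to 0.0238 for untreated replicate 3, which vsn adjusts for. Median signals, which lie near background, were 152 to 167 arbitrary units, and each array detected 16396 to 17700 probes above its own negative controls (detection p of 0.05 or less). On the first principal component untreated replicate 1 stood apart with a score of -18.9 against -2.64 to 10.9 for the other 5 arrays, and member values without it are given beside the results. Of 14 fibroblast markers, 9 were detected on at least 1 array and 8 on all 6, among them Col1a1, Col1a2, Col3a1, Fn1 and Vim, whereas Thy1, Dcn, Lum, Postn and Fbn1 had no probe named among those tested. Of other cell types, 2 of 8 macrophage, 2 of 7 endothelial, 2 of 7 epithelial, 3 of 7 skeletal muscle and 1 of 6 adipocyte markers were detected on at least 1 array, Cd14 and Krt8 on all 6, and the markers not counted had no probe named among those tested. Of all these markers 0 passed an adjusted p of 0.05 in limma. In RNA of whole cultures fewer expressing cells and less RNA per cell cannot be told apart.

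Ier3 was lower on all 3 Cr arrays than on any untreated array, at 70.6% of untreated controls (95% confidence interval 62.4 to 79.8), the lowest of the members. Its probe ILMN_1216764 had signals of 15098, 14453 and 12761 in untreated replicates 1 to 3, and 9407, 10809 and 10515 in Cr replicates 1 to 3. The lowest untreated signal was above the highest Cr signal before any normalization. After vsn normalization, which puts signals on a generalized log2 scale, the values were 13.71, 13.79 and 13.89 in untreated controls and 13.23, 13.36 and 13.29 with Cr, and the 9 differences between a Cr and an untreated array ran from -0.66 to -0.35. The log2 fold change (Cr minus untreated) was -0.50 (standard error 0.08, n = 3 per group), with an adjusted p = 0.0567 from limma over 20308 probes, rank 9 by p. The adjusted p therefore lay just above the threshold of 0.05, and it fell below it in 8 of 17 alternative settings, over which it ranged from 0.0118 to 0.875 while the log2 fold change stayed between -0.54 and -0.46. Leaving out untreated replicate 1 gave -0.54 with an adjusted p = 0.0362. With the authors' deposited values limma gave -0.51 with an adjusted p = 0.0234. The study itself listed Ier3 among its significantly changed genes.

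Csrnp1 came next at 77.4% of untreated (66.0 to 90.7), with groups that only just separated. On probe ILMN_2636403 the signals were 773, 631 and 532 in untreated controls and 443, 598 and 500.03 with Cr, so that Cr replicate 2 lay above untreated replicate 3 before normalization. The normalized values were 9.37, 9.15 and 9.13 untreated and 8.68, 9.09 and 8.77 with Cr. Cr replicate 2 then differed from the lowest untreated array by -0.043, less in size than the SD of either group (0.13 untreated and 0.22 with Cr, n = 3 each). The log2 fold change was -0.37 (standard error 0.11), with an unadjusted p = 0.00379 and an adjusted p = 0.665 from limma. It was -0.49 without Cr replicate 2, -0.29 without Cr replicate 1 and -0.29 without untreated replicate 1, and its adjusted p stayed above 0.05 in all 17 alternatives (0.353 to 1).

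Btg1 was measured by a pair of bright probes with similar log2 fold changes. Probe ILMN_2866189 had signals of 12654, 11084 and 9588 in untreated controls and 10551, 10160 and 11194 with Cr, and probe ILMN_2866185 had 9932, 8791 and 7833 untreated and 7807, 8605 and 8741 with Cr. Within each probe the raw signals of the groups overlapped. The normalized values of ILMN_2866189 were 13.46, 13.40 and 13.47 untreated and 13.39, 13.27 and 13.38 with Cr, a log2 fold change of -0.10 (standard error 0.08), and the groups no longer overlapped, with -0.0072 between their nearest arrays. Those of ILMN_2866185 were 13.11, 13.06 and 13.18 untreated and 12.96, 13.03 and 13.02 with Cr, a log2 fold change of -0.11 (standard error 0.08), with -0.033 between the nearest arrays. Neither passed (adjusted p = 0.986 for both from limma), and the intervals, 83.2% to 105% and 82.2% to 104% of untreated, include no change. Without untreated replicate 1 the log2 fold changes were -0.09 and -0.12. With each probe set relative to its own mean, the probes differed by up to 0.10, on Cr replicate 1, about the size of the log2 fold changes. RefSeq lists the protein-coding copies Btg1b and Btg1c on chromosome X, so these probes may also take up their transcripts, and the share of each copy is uncertain.

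Btg3, with signals of 284 to 465, had groups that overlapped on both of its probes. Probe ILMN_3117483 had normalized values of 8.59, 8.30 and 8.07 in untreated replicates 1 to 3 and 8.17, 7.96 and 8.22 in Cr replicates 1 to 3. Untreated replicate 1 was high, and the other untreated arrays lay among or near the Cr arrays. The log2 fold change was -0.21 (standard error 0.12, 72.8% to 103% of untreated, adjusted p = 0.986 from limma), -0.072 without untreated replicate 1 and -0.33 without untreated replicate 3. On probe ILMN_3042627 the values were 8.02, 8.11 and 8.06 untreated and 7.98, 7.91 and 8.05 with Cr, a log2 fold change of -0.09 (standard error 0.08, 83.7% to 106%), and -0.11 without untreated replicate 1. Relative to their own means the probes disagreed by up to 0.37, on untreated replicate 1.

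**Figure D2:**
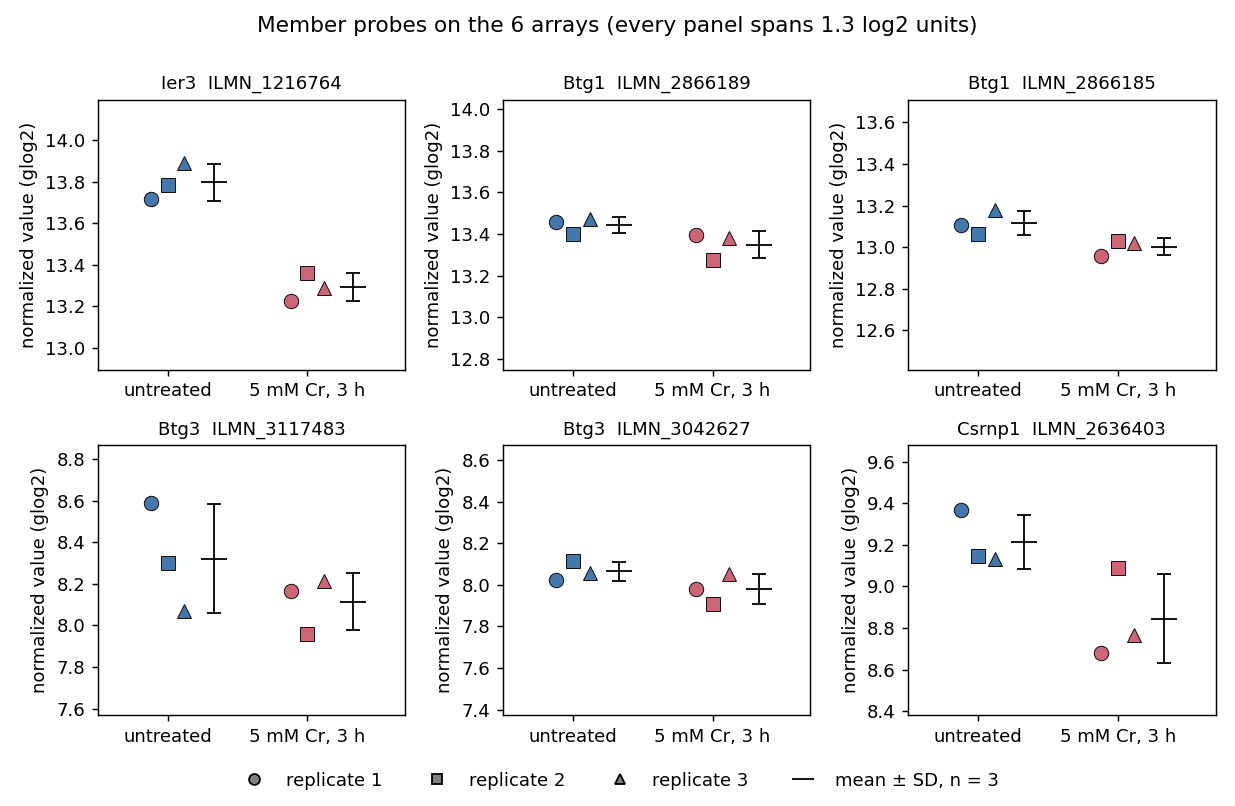
Normalized values (y axis, generalized log2 scale, each panel spanning the same range) of the 6 member probes on 3 untreated and 3 Cr arrays (x axis), with replicates marked by shape and the mean and SD (n = 3) beside them. Between the nearest arrays of the 2 groups the difference is -0.35 for Ier3 and -0.043 for Csrnp1, and the Btg3 groups overlap.

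All 6 member probes found were detected on all 6 arrays, though a dim member probe could not have been found, since symbols were at hand for detected probes alone. Of the 6, 0 passed an adjusted p of 0.05 in limma, against 0.0295% of all probes tested in either direction, and 2 (Ier3 and Csrnp1) had an unadjusted p of 0.05 or less in the lower direction, against 2.6% of all probes lower and 2.45% higher. Every Cr array lay below every untreated array for 4 of the 6 (Ier3, Csrnp1 and both Btg1 probes), against 5.15% of all probes, and above for 0, against 5.59%. The log2 fold change was below 0 for 6 of 6, against 49.4% of all probes. The median was -0.16 over the member probes and 0.0014 over all probes tested. Since the genes were selected on this contrast and Btg1 and Btg3 count by 2 probes each, nothing is read from these counts.

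**Figure D3:**
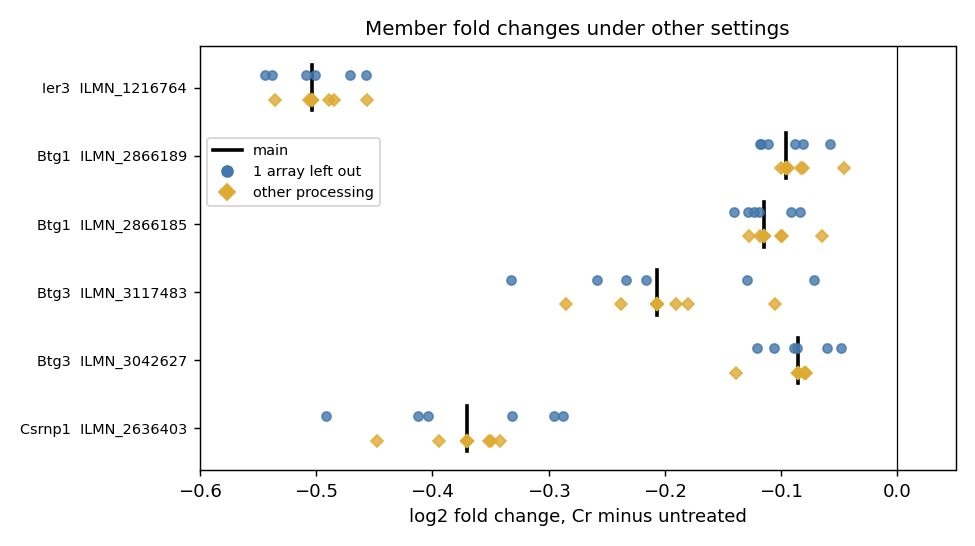
Log2 fold change, Cr minus untreated (x axis), of each member probe (y axis) in the main analysis (black bar), with 1 array left out (circles) and under other processing (diamonds). All points lie below 0, Ier3 stays between -0.54 and -0.46, and the Btg3 probe ILMN_3117483 ranges from -0.33 to -0.072.

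Relatives of the members in the same protein families, counted together with the Ier3 partner Ier3ip1, were spread on both sides of 0. Tob1 and Tob2, antiproliferative proteins of the BTG/TOB family, had log2 fold changes of -0.08 (standard error 0.08) and -0.16 (standard error 0.10, on the brighter probe, and 0.016 on a probe detected on 1 untreated and 2 Cr arrays). Btg4, known for its part in the mouse oocyte, had 0.10 on a dim probe detected on 1 untreated and 3 Cr arrays. Ier5l, a relative of Ier2 and Ier5, had 0.0091, Csrnp2 had -0.010, and Ier3ip1, which encodes a small membrane protein named for its binding to Ier3, had -0.074. Csrnp3, also in the list, had no probe named among those tested. The median of the 6 genes was -0.042, and -0.051 without untreated replicate 1. None of these 7 probes had an unadjusted p of 0.05 or less in limma or groups that did not overlap. Whether any differed from the member it is related to or binds was not tested.

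**Figure D4:**
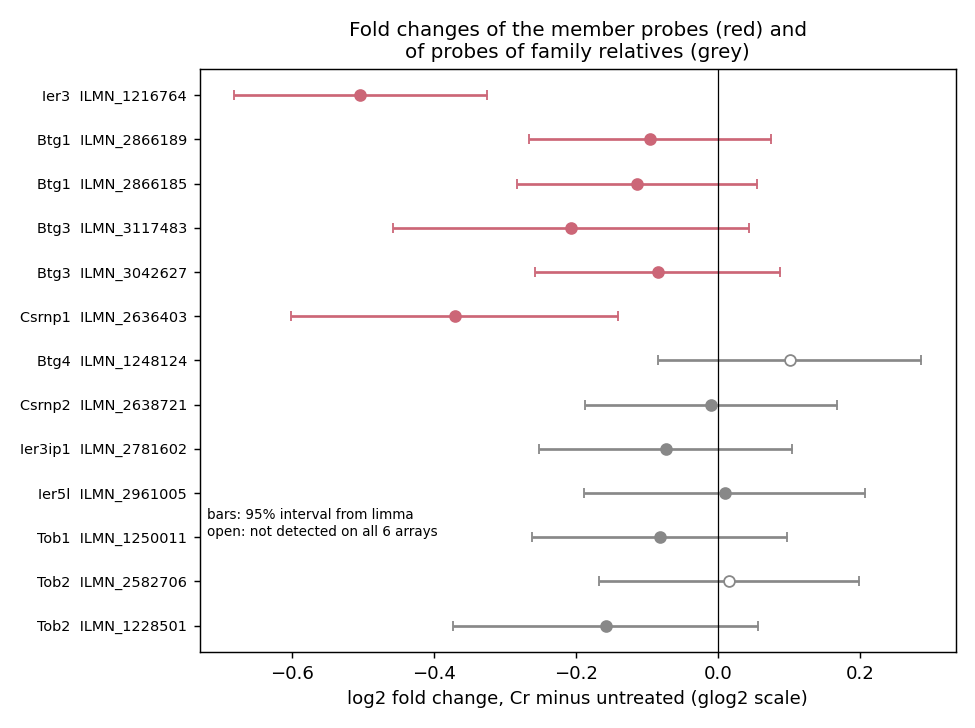
Log2 fold change, Cr minus untreated (x axis), with its 95% interval from limma for the 6 member probes (red) and 7 probes of family relatives or of Ier3ip1 (grey), where open points were not detected on all 6 arrays. The intervals of Ier3 and Csrnp1 lie below 0, and those of the other 11 probes include 0.

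The partners and pathways around these genes were counted with 1 probe per gene, the brightest, and adjustment over all probes. Over all 10585 named genes 0.0378% passed as lower and 0.00945% as higher at an adjusted p of 0.05, and 2.65% were lower and 2.63% higher at an unadjusted p of 0.05 or less, with a median log2 fold change of 0.0030. In each of the lists below 0 genes passed the adjusted threshold in limma, so the counts are at the unadjusted one.

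Of 16 measured genes of the CCR4-NOT complex and other partners of BTG proteins, 1 was lower and 1 higher, with a median of -0.034. For Cnot3, a subunit of the complex, the log2 fold change was -0.24 (standard error 0.11) and Pan2, the catalytic subunit of a further deadenylase, 0.20 (standard error 0.08), while Cnot9 had -0.15. Without untreated replicate 1 the counts were 0 lower and 0 higher. Of 12 measured PP2A subunits and partners of the IER proteins, 0 were lower and 0 higher, with a median of 0.00064. The catalytic subunit genes Ppp2cb and Ppp2ca had -0.16 and 0.10, and Ppp2r5c, a regulatory subunit, 0.15. The list had 1 lower and 2 higher without untreated replicate 1, against 2.88% lower and 4% higher over all named genes in that fit.

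Of 12 measured heat shock genes under HSF1, 2 were lower and 0 higher, with a median of -0.039. Hspd1 and Hspe1, the mitochondrial chaperonin pair, had -0.22 (standard error 0.09) and -0.28 (standard error 0.15), and the second of them did not reach the unadjusted threshold. The other gene counted, the inducible chaperone Hspa1a, was not well above background on any Cr array and on only 1 untreated array, and no fold is given. Without untreated replicate 1 the count was 1 lower. Of 16 measured p53 targets, 2 were lower and 3 higher, with a median of -0.010. The growth arrest gene Gadd45a had 0.26 (standard error 0.08) and Cdkn1a, the p21 inhibitor of cyclin-dependent kinases, -0.29 (standard error 0.09), and the other gene counted as lower, Ddit4l, was not well above background on any Cr array. Without untreated replicate 1 the counts were again 2 lower and 3 higher, and the median turned to 0.032.

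The last list held early response genes outside the 7 members, chosen as targets of serum response factor and ERK. Of 29 measured, 13 were lower and 0 higher at an unadjusted p of 0.05 or less in limma. The median log2 fold change was -0.17, and 23 had values below 0, against 5156 of all 10585 named genes. This list was drawn up with the results of these arrays known and is not independent evidence of a direction. The transcription factor genes Egr3 and Fos had -0.56 (standard error 0.09, adjusted p = 0.0517 from limma) and -0.47 (standard error 0.10, adjusted p = 0.22), and Dusp5, a phosphatase of ERK, -0.42 (standard error 0.08, adjusted p = 0.21). Without untreated replicate 1 the counts were 10 lower and 1 higher, against the same 2.88% and 4%, and the median -0.13, which was the smallest with any single array left out, and the median reached -0.22 without untreated replicate 2.

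**Figure D5:**
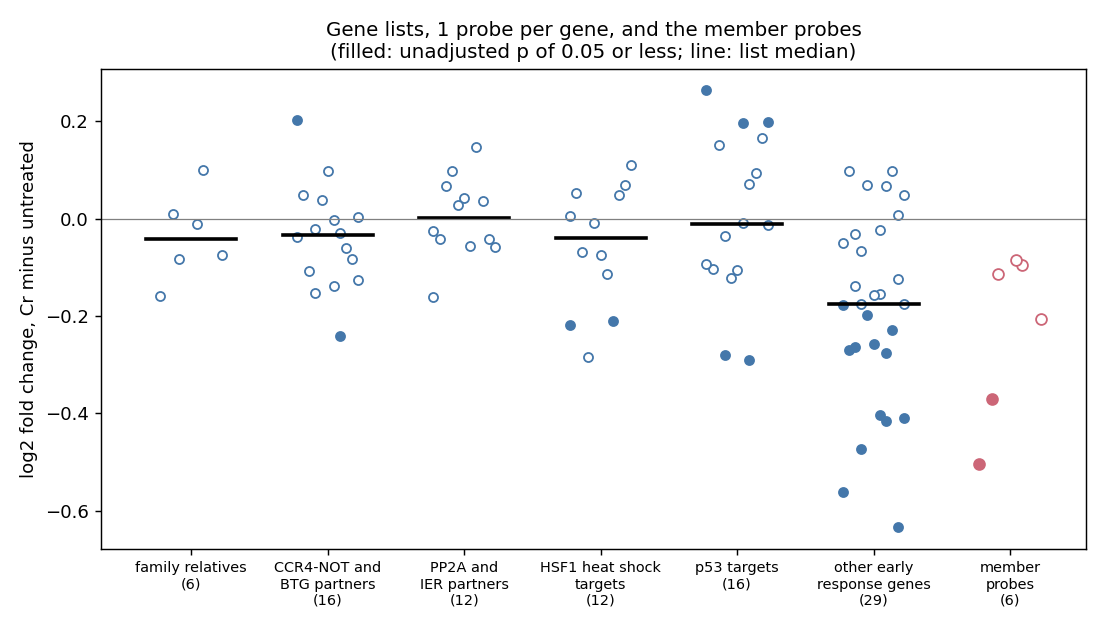
Log2 fold change, Cr minus untreated (y axis), of each measured gene in 6 lists and of the 6 member probes (x axis, number measured in brackets), filled where the unadjusted p from limma was 0.05 or less, with the list median as a line. The other early response genes run from -0.63 to 0.098 with a median of -0.17, and the medians of the other lists lie between -0.042 and 0.00064.

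The genes whose array profile was most like that of each member were found by the root mean square difference of normalized values, each relative to its own mean, over the 6 arrays. For each member, probes whose SD over the 6 arrays was far smaller than its own were not compared. For Ier3, with 3720 probes compared, the closest were Errfi1, an inhibitor of the EGF receptor (difference 0.037), the connexin gene Gjb2 (0.045) and Dusp5 (0.056). Their log2 fold changes were -0.45, -0.51 and -0.42, and the choice by profile over these same arrays brings them near that of Ier3. For Csrnp1, with 5190 compared, the closest were farther off, Glul, which encodes glutamine synthetase (0.075, detected on 4 arrays), Zfp768 (0.081) and the actin-modifying enzyme Mical2 (0.086). For Btg1, whose values spread little, Gna11 (0.016), Stmn4 (0.016) and Cobll1 (0.017) came first among 16732. For Btg3, on probe ILMN_3117483, Kcnj4 (0.022, detected on 4 arrays), the RNA-binding protein gene Larp4 (0.031) and Olfr598 (0.046, detected on 1 array) came first among 8091. Probes of the same gene were left out of the search. On the same measure the other Btg1 probe lay at 0.060 and the other Btg3 probe at 0.18, farther off than the genes named. These likenesses describe 6 arrays, share their differences in level between arrays, and carry no test.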

How the data were processed

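Gene expression was measured on 6 arrays of the Mouse WG-6 v2 BeadChip, 3 untreated and 3 with 5 mM Cr for 3 h, grouped by the submitters' labels. The replicates are numbered without a statement that they are separate cultures, so p-values measure only the spread between these samples, and the number of arrays limits the precision. The deposited table holds, for 45281 probes, a signal intensity before background subtraction and, beside it, a detection p-value, both exported by the authors from the scanner software. The authors also deposited values on vsn's generalized log2 scale, made by background correction, vsn and a detection filter that kept 20308 probes, and these were used as an alternative.

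The vsn model (an offset and a scale per array within asinh, least trimmed squares at a quantile of 0.9, 7 rounds) was written out in R 4.3.3 and fitted to all probes. A fold on this scale understates the change of dim probes. Any probe detected (p of 0.05 or less) on 1 or more arrays entered limma 3.58.1 (lmFit, eBayes, two-sided, no covariate), with Benjamini-Hochberg adjustment over all 20308 and a threshold of 0.05. The fits were tried on simulated data with the same spread for every probe. That check does not cover an array that stands apart. The platform annotation covered these probes only. Of them 16925 carried 1 symbol, 7 several and 3376 none, and RefSeq (GRCm38.p6) changed 0 symbols. Gene and promoter positions are those of RefSeq, since the sources used here name no build for the array. Motifs were matched by letters. A probe not well above background on any array of a group would be given as a bound, and no fold where that bound was under 1. The members and the gene lists were chosen with earlier results of these data known. Named were all members, family relatives and Ier3ip1, the 3 genes of lowest p of each other list, and the 3 closest profiles. The markers named and the comparison of list counts without untreated replicate 1 were added after values were seen. Alternatives were other background corrections and normalizations, the authors' values, filters, weights per array, a replicate block, a trended variance, each array left out, 1 probe per gene and other thresholds. Python 3.11.15 with matplotlib 3.10.9 drew the figures.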

Additional observations from a re-analysis of the deposited data

How the results depend on the processing

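In the main analysis 0 member probes and 6 of all probes passed the threshold. The member count was 1, always Ier3, with the authors' deposited values (12 of all probes), log2 with quantile normalization (12), array weights (15), no filter on dim probes (10), a variance model with trend and robust estimation (13), 1 probe per gene (8) and at an adjusted p of 0.1. It was 2 at an unadjusted p of 0.05 or less. With neqc and with normexp and median scaling 0 of all probes passed in limma, with 1145 and 1001 at an unadjusted p of 0.05 or less. With each array left out the member count was 0 to 1, the 1 without untreated replicate 1, and the count of all probes 0 to 9. The cause of these changes was not tested. All 6 member probes kept a log2 fold change below 0 in every alternative run, and Ier3 alone crossed the threshold. Motif matches numbered 34 on both strands and 22 on the forward strand alone.

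Whether the replicate numbers pair the samples was not settled. Deviations from the group means correlated at 0.24, 0.31 and -0.031 for replicates 1, 2 and 3. The highest correlation with another number was lower for replicates 1 and 2 (0.147 and 0.117) and higher for replicate 3 (0.147). With the replicate number as a block (replicate block) the member count was 1 (Ier3, adjusted p = 0.0303) and the count of all probes 14.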
